A study of Drosophila melanogaster with 6 samples.

Results

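The citric acid cycle enzymes examined here are 10 genes of *Drosophila melanogaster*, chosen by a list of FlyBase symbols, out of the 17869 genes in the count tables: *kdn*, *mAcon1*, *Idh*, *Idh3a*, *Idh3b*, *Idh3g*, *Ogdh*, *Scsalpha1*, *ScsbetaA* and *ScsbetaG*. Their transcripts were measured by RNA-seq of whole second-instar (L2) larvae from stocks kept at 25°C. The controls were *Pyk23/+* heterozygotes, which keep 1 wild-type copy of *Pyk*, the gene of the glycolytic enzyme pyruvate kinase. The mutants were *Pyk23/31* larvae, which carry a different frameshift deletion on each chromosome, so that the *Pyk23* allele was present in both genotypes. Each genotype had 3 samples of larvae of mixed sex, and the comparison asks how loss of pyruvate kinase changed larval gene expression.

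The citric acid cycle takes up acetyl-CoA made from pyruvate, fatty acids or amino acids, oxidises it to carbon dioxide, and passes the electrons to the respiratory chain. Citrate synthase and aconitase open the cycle, isocitrate dehydrogenase and the 2-oxoglutarate dehydrogenase complex release carbon dioxide, and succinyl-CoA synthetase conserves the energy of succinyl-CoA as ATP or GTP. Pyruvate kinase stands upstream, at the last step of glycolysis, and its product pyruvate is a main source of the acetyl-CoA that enters the cycle.

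The 6 libraries held 11249487 to 16029304 read pairs assigned to genes on the strand of the transcript. *Pyk* itself matched every label, at 419 to 465 CPM (counts scaled to the size of the library) in the controls against 44.0 to 57.7 in the mutants (log2 fold change of −3.09 ± 0.10 SE, edgeR adjusted p = 8.43e-07). Libraries numbered 3 stood apart. Over the 5000 genes that varied most, Spearman's rho was 0.981 between replicates 1 and 2 of either genotype. Control replicate 3 had a rho of 0.94 and 0.95 with its own genotype and of 0.926 to 0.938 with the mutants. Mutant replicate 3 had a rho of 0.948 and 0.941 with its own genotype and of 0.893 to 0.938 with the controls. Between the genotypes, replicates 1 and 2 had a rho of 0.849 to 0.863. Fold changes, ratios and counts of calls are therefore also given without the libraries numbered 3. The study calls the samples biological replicates. The p-values reflect only how these 6 libraries varied, and edgeR draws each gene's variance towards that of genes of similar level. Where 3 values are listed for a genotype, they are those of replicates 1, 2 and 3. Counts cover the exons of each gene, and the spans given are those of the BDGP6.54 annotation, introns included.

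All 10 genes were well measured, with 1240 to 22128 counts per library, so that counting error came to 2.84% or less in any library. Levels summed over the 10 transcripts, per kilobase of exon, were lower in every mutant library than in any control library. The sums were 2450, 2488 and 2375 CPM per kb in the controls against 2190, 2072 and 2068 in the mutants. Of the 10, *Idh* fell most on this scale, from a mean of 376.6 to one of 219.8 CPM per kb. The means were 2438 ± 57.4 and 2110 ± 69.6 CPM per kb (SD, n = 3), and the exact two-sided permutation test of 3 against 3 samples gave p = 0.1, the smallest value that this design allows. The 10 enzymes did not all move the same way. By edgeR's quasi-likelihood test, adjusted over all 11422 genes tested, 6 of the 10 genes were lower in the mutants, 2 were higher and 2 did not pass an adjusted p of 0.05. Across all tested genes, 26.0% were called lower and 22.2% higher by the same rule. None of the 10 genes changed by 2-fold or more, a size reached by 7.50% of all tested genes. The control and mutant values did not overlap for 9 of the 10, against 60.9% of all tested genes. The median log2 fold change of the 10 was −0.20, and that of all tested genes was 0.015. Without the libraries numbered 3, 7 of the 10 were lower and 2 higher, and the log2 difference of the summed level was −0.21, against −0.21 with all libraries.

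**Figure D1:**
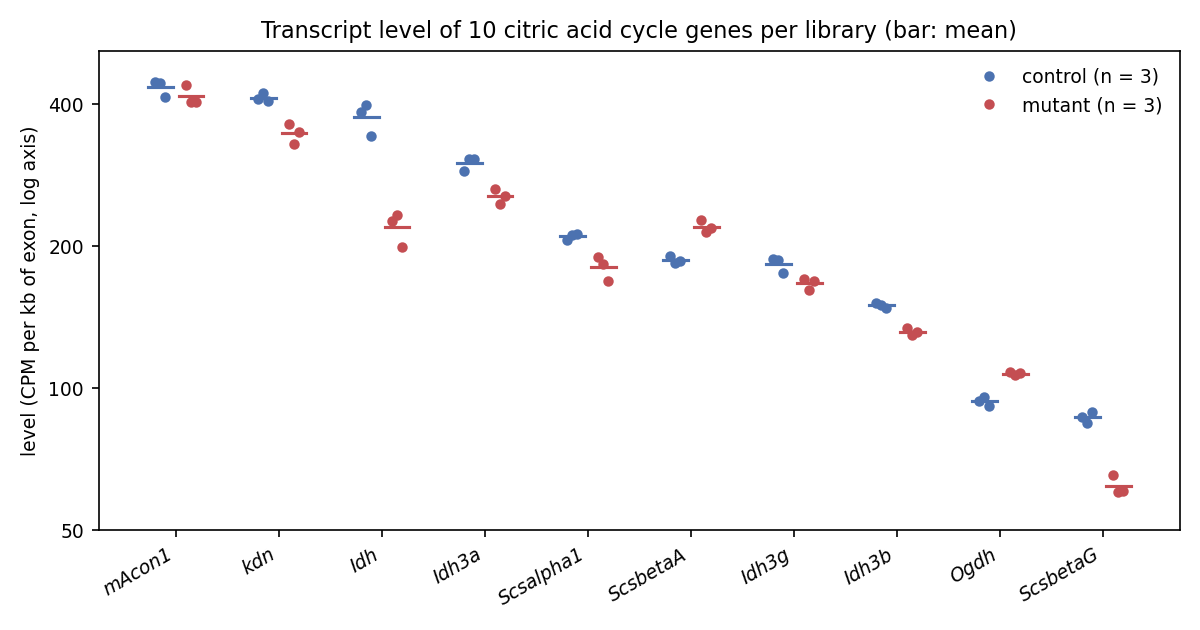
Transcript level of each gene in CPM per kb of exon (log axis) in every library, with controls in blue, mutants in red and a bar at the mean of 3 libraries. The genes are ordered by their control mean, from *mAcon1* at 435.7 to *ScsbetaG* at 86.95. *Idh* and *ScsbetaG* show the widest gaps downward, while *Ogdh* and *ScsbetaA* are the genes whose mutant libraries all lie above the controls.

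Levels can be compared between genes only after division by exon length, and on that scale the 10 transcripts spanned 5.01-fold in the controls. The highest was *mAcon1* at 435.7 ± 18.0 CPM per kb (SD, n = 3), followed by *kdn* at 412.9 ± 8.32, and their ranges over the 3 controls overlapped. *Idh* had rank 3 at 376.6 ± 29.3 and *Idh3a* rank 4 at 300.2 ± 10.1. The remaining order in the controls was *Scsalpha1*, *ScsbetaA*, *Idh3g*, *Idh3b*, *Ogdh* and *ScsbetaG*, from 210.3 down to 86.95 CPM per kb, and of these neighbours only *ScsbetaA* and *Idh3g* had overlapping ranges. In the mutants *mAcon1* remained highest at 416.0 ± 19.9 CPM per kb and *ScsbetaG* lowest at 62.21 ± 2.9, a span of 6.69-fold. *Idh* moved from rank 3 to rank 5, at 219.8 ± 17.6 CPM per kb, and *ScsbetaA* from rank 6 to rank 4, at 220.4 ± 6.5, and the ranges of these new neighbours overlapped. *Scsalpha1* and *Idh3g* were the other neighbours that overlapped in the mutants. The 10 genes took 0.602% to 0.633% of all CPM in the controls and 0.536% to 0.567% in the mutants.

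The entry to the cycle showed 1 enzyme that fell and 1 that did not pass the test. *kdn* (*knockdown*, FBgn0261955, chromosome X:6350629-6361323, plus strand) encodes citrate synthase, which joins acetyl-CoA to oxaloacetate. Its level was 1163, 1198 and 1152 CPM in the controls against 1033, 936.6 and 993.3 CPM in the mutants. Every mutant library lay below every control library. The log2 fold change was −0.25 ± 0.06 SE (95% interval −0.38 to −0.11, edgeR adjusted p = 0.00668), and without the libraries numbered 3 it was −0.27 (adjusted p = 0.00722).

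*mAcon1* (FBgn0010100, 2L:21168570-21173185, plus strand) encodes mitochondrial aconitase, the iron-sulfur enzyme that turns citrate into isocitrate. It stood at 1387, 1381 and 1288 CPM in the controls against 1362, 1257 and 1254 CPM in the mutants. The groups overlapped, since mutant replicate 1 lay above control replicate 3. The log2 fold change was −0.07 (95% interval −0.20 to 0.07, edgeR adjusted p = 0.388), and without the libraries numbered 3 it was −0.09 (adjusted p = 0.252). *mAcon1* overlaps *CG43345* and *CG43346* on the other strand, whose reads the stranded counts keep apart.

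Isocitrate oxidation is carried out by enzymes that use different cofactors. The NAD-dependent enzyme of the mitochondria is built from the products of *Idh3a*, *Idh3b* and *Idh3g*, with the catalytic site on the alpha subunit, while *Idh* encodes the NADP-dependent isocitrate dehydrogenase, a source of NADPH. Transcripts of all 3 NAD-dependent subunits lay lower in every mutant library than in any control library, and 2 of the 3 passed the test. *Idh3a* (FBgn0027291, X:19518428-19521810, minus strand) was measured at 607.0, 644.0 and 643.9 CPM in the controls against 556.0, 518.7 and 537.8 CPM in the mutants. The log2 fold change was −0.23 ± 0.06 SE (95% interval −0.36 to −0.10, edgeR adjusted p = 0.00869), with −0.23 as the value without the libraries numbered 3 (adjusted p = 0.0149).

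*Idh3b* (FBgn0038922, 3R:22016391-22019382, minus strand), a regulatory or structural subunit, varied little within a genotype, with a coefficient of variation of 1.32% in the controls and 1.62% in the mutants. The controls held 312.7, 310.0 and 304.7 CPM, and the mutants held 276.1, 267.4 and 271.5 CPM. The gap between the groups was wider than the spread within either, with a log2 fold change of −0.19 ± 0.06 SE (95% interval −0.31 to −0.06, edgeR adjusted p = 0.0201) and of −0.21 without the libraries numbered 3 (adjusted p = 0.0169). The call was lost when only library totals were used for scaling (adjusted p = 0.077) and without control replicate 1, control replicate 2 or mutant replicate 2 (adjusted p of 0.0599, 0.0654 and 0.0567). *Idh3b* lies 348.2 kb from *Pyk* and is the nearest to it of the 3 members on that chromosome arm.

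*Idh3g* (FBgn0039358, 3R:25680845-25683780, plus strand), the other non-catalytic subunit, held 446.9, 444.7 and 418.4 CPM in the controls against 405.2, 385.1 and 402.2 CPM in the mutants. The groups did not overlap, though control replicate 3 lay close to the highest mutant. Its log2 fold change of −0.14 (95% interval −0.27 to −0.004) did not pass, with an edgeR adjusted p of 0.0817. Without control replicate 3 it was −0.18 (adjusted p = 0.0473), and without the libraries numbered 3 of both genotypes it was −0.18 (adjusted p = 0.0283). *Idh3g* overlaps the ribosomal protein gene *RpL27* on the opposite strand.

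The 3 subunits kept nearly the same proportions in both genotypes, with log2 ratios that differed by about 0.05. The log2 ratio of *Idh3a* to *Idh3b*, per kilobase of exon, was 0.93, 1.02 and 1.05 in the controls against 0.98, 0.93 and 0.95 in the mutants. These ranges overlapped (difference of −0.05, exact two-sided permutation p = 0.3, adjusted over 5 ratios p = 0.3). The log2 ratio of *Idh3g* to *Idh3b* was 0.31, 0.31 and 0.25 in the controls against 0.35, 0.32 and 0.36 in the mutants, a difference of 0.05 with groups that did not overlap (exact permutation p = 0.1, adjusted p = 0.125). With 3 samples against 3 this test cannot go below 0.1, so no ratio could pass. Without the libraries numbered 3 the differences were −0.02 and 0.02.

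*Idh* (FBgn0001248, 3L:8356404-8360906, minus strand) had the largest change of the 10. The controls held 940.0, 973.2 and 836.5 CPM, and the mutants held 552.0, 566.5 and 486.1 CPM. The lowest control stood well above the highest mutant, although *Idh* was also the most variable of the 10 within a genotype (coefficient of variation of 7.78% in the controls against 8.01% in the mutants). It was 1.71-fold lower in the mutants (log2 fold change of −0.78 ± 0.08 SE, 95% interval −0.96 to −0.60, edgeR adjusted p = 6.84e-05), and the log2 fold change was −0.78 without the libraries numbered 3 (adjusted p = 1.41e-05). The annotation gives 9 transcripts of *Idh*, and counts per gene do not separate them.

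*Idh* was lower relative to the catalytic subunit of the NAD-dependent enzyme in every mutant library. The log2 ratio of *Idh* to *Idh3a* was 0.42, 0.39 and 0.17 in the controls against −0.22, −0.08 and −0.36 in the mutants. Per kilobase of annotated exon, *Idh* was thus the higher of these transcripts in every control library and the lower in every mutant library. This order in the mutants rests on the exon lengths used (2.434 kb for *Idh*, 2.104 kb for *Idh3a*). In CPM the mutants held 552.0, 566.5 and 486.1 for *Idh* against 556.0, 518.7 and 537.8 for *Idh3a*. On the scale per kilobase, the share of *Idh* in both transcripts was 55.6% ± 2.35 in the controls (SD, n = 3) and 46.2% ± 2.35 in the mutants. The log2 ratio differed by −0.54 between genotypes (exact permutation p = 0.1, adjusted p = 0.125), and by −0.55 without the libraries numbered 3.

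**Figure D2:**
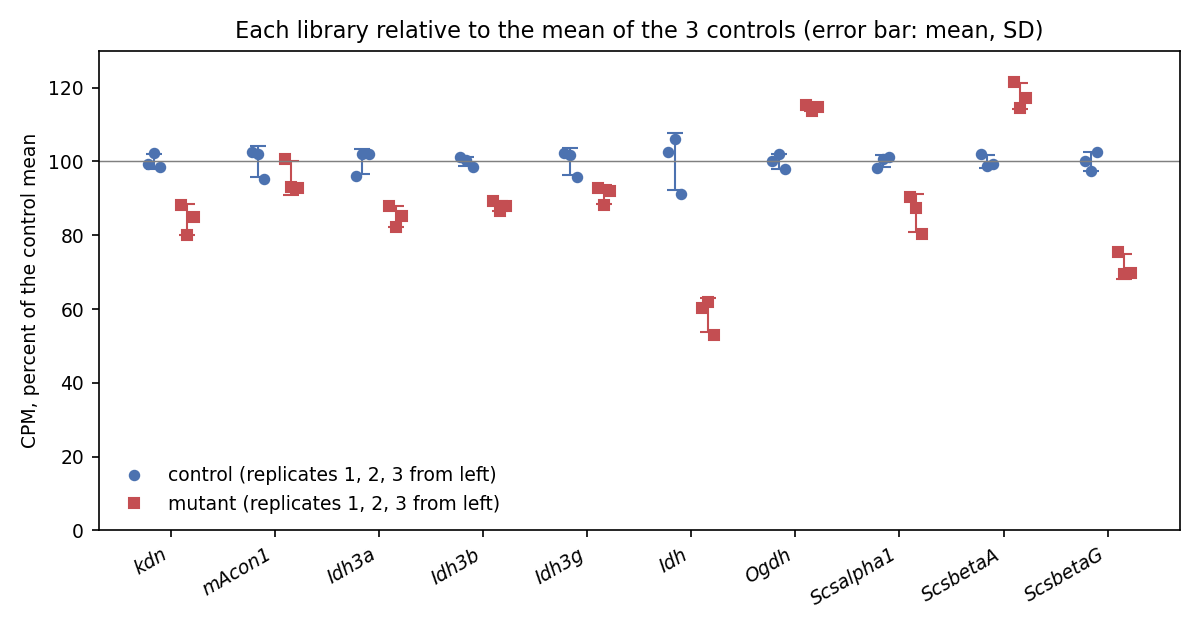
CPM of each gene in every library as a percent of the mean of the 3 controls, with circles for controls, squares for mutants and error bars for mean and SD. The mutant libraries of *Idh* and *ScsbetaG* lie lowest (means of 534.9 and 99.54 CPM against 916.6 and 139.1 CPM in the controls), and only *mAcon1* has a mutant library among the controls.

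The 2-oxoglutarate dehydrogenase complex turned the other way at its first subunit. *Ogdh* (FBgn0010352, 3L:16954822-16968724, plus strand) encodes E1, the thiamine-dependent subunit that decarboxylates 2-oxoglutarate. It held 501.7, 511.6 and 491.6 CPM in the controls against 578.2, 569.9 and 575.9 CPM in the mutants. All mutants lay above all controls. The mutant libraries were the most alike of any gene and genotype among the 10, with a coefficient of variation of 0.747%. That is below the counting error of 1.36% at the lowest count of *Ogdh*, which was in control replicate 3. The log2 fold change was 0.20 ± 0.05 SE (95% interval 0.08 to 0.32, edgeR adjusted p = 0.0136). The call was lost when control replicate 1, 2 or 3 was left out (adjusted p of 0.0514, 0.0543 and 0.0611), with log2 fold changes of 0.19, 0.20 and 0.17. Without the libraries numbered 3 it was 0.17 (adjusted p = 0.0349). *Ogdh* shares 63 of its 5344 exon bases with *Obp73a* on the same strand, and overlaps *Cpr73D* on the other strand.

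Neither partner of *Ogdh* in the complex was called higher. *CG5214* encodes E2, the succinyltransferase, and fell from 418 ± 13.6 to 370 ± 14.5 CPM (SD, n = 3, log2 fold change of −0.18, edgeR adjusted p = 0.0333). *CG7430* encodes E3, the dihydrolipoamide dehydrogenase that the pyruvate dehydrogenase complex also uses, and its log2 fold change was −0.11 with overlapping groups (edgeR adjusted p = 0.238). The log2 ratio of *Ogdh* to *CG5214* per kilobase of exon was −1.34, −1.26 and −1.28 in the controls against −0.97, −0.91 and −0.88 in the mutants. The ratio of *Ogdh* to *CG7430* was likewise higher in every mutant library, by 0.31 on the log2 scale, whereas the ratio of *CG5214* to *CG7430* overlapped between genotypes. These ratios were chosen after the values were seen and were not tested.

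Succinyl-CoA synthetase pairs a common alpha subunit, encoded by *Scsalpha1*, with either of 2 beta subunits, of which *ScsbetaA* gives the ATP-forming and *ScsbetaG* the GTP-forming enzyme. The beta subunits moved in opposite directions. *ScsbetaA* (FBgn0037643, 3R:8938724-8943027, plus strand) held 435.6, 422.0 and 424.3 CPM in the controls against 518.9, 489.6 and 500.2 CPM in the mutants. Every mutant library was above every control library, and the log2 fold change was 0.24 ± 0.06 SE (95% interval 0.11 to 0.36, edgeR adjusted p = 0.00678). Without the libraries numbered 3 it was 0.22 (adjusted p = 0.0131). The gene overlaps *CG11964* on the other strand.

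*ScsbetaG* (FBgn0029118, 3L:5561701-5563691, minus strand) showed the second largest change of the 10. It held 139.2, 135.5 and 142.6 CPM in the controls against 104.9, 96.71 and 97.03 CPM in the mutants. The groups were far apart relative to their spread, at 139.1 ± 3.57 and 99.5 ± 4.64 CPM (SD, n = 3). *ScsbetaG* was 1.40-fold lower in the mutants (log2 fold change of −0.48 ± 0.06 SE, 95% interval −0.63 to −0.34, edgeR adjusted p = 0.000279), and the log2 fold change was −0.46 without the libraries numbered 3 (adjusted p = 0.000539).

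*Scsalpha1* (FBgn0004888, 3L:3814211-3818383, plus strand) followed the GTP-forming subunit in direction. It held 305.3, 312.9 and 315.0 CPM in the controls against 281.4, 271.9 and 250.1 CPM in the mutants, with no overlap and mutant replicate 3 the lowest. The log2 fold change was −0.22 ± 0.06 SE (95% interval −0.36 to −0.07, edgeR adjusted p = 0.0193), and −0.17 without the libraries numbered 3 (adjusted p = 0.0397). The call was lost when only library totals were used for scaling (adjusted p = 0.0629) and without control replicate 2 (adjusted p = 0.0582). On the other strand *Scsalpha1* overlaps *Acp63F* and a pair of long noncoding RNA genes.

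The balance of the beta subunits separated the genotypes more widely than the other 4 ratios that were tested. The log2 ratio of *ScsbetaG* to *ScsbetaA* was −1.13, −1.13 and −1.06 in the controls against −1.79, −1.83 and −1.85 in the mutants. *ScsbetaG* therefore made up 31.7% ± 0.606 (SD, n = 3) of beta subunit transcripts per kilobase of exon in the controls against 22.0% ± 0.355 in the mutants. The log2 ratio differed by −0.72 (exact permutation p = 0.1, adjusted p = 0.125), and by −0.68 without the libraries numbered 3. The alpha subunit against both beta subunits summed had a log2 ratio of −0.43, −0.35 and −0.37 in the controls against −0.62, −0.58 and −0.73 in the mutants. Alpha subunit transcripts were thus fewer than beta subunit transcripts in all 6 libraries, and more so in the mutants, by 0.26 on the log2 scale (exact permutation p = 0.1, adjusted p = 0.125), a difference of −0.21 without the libraries numbered 3.

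**Figure D3:**
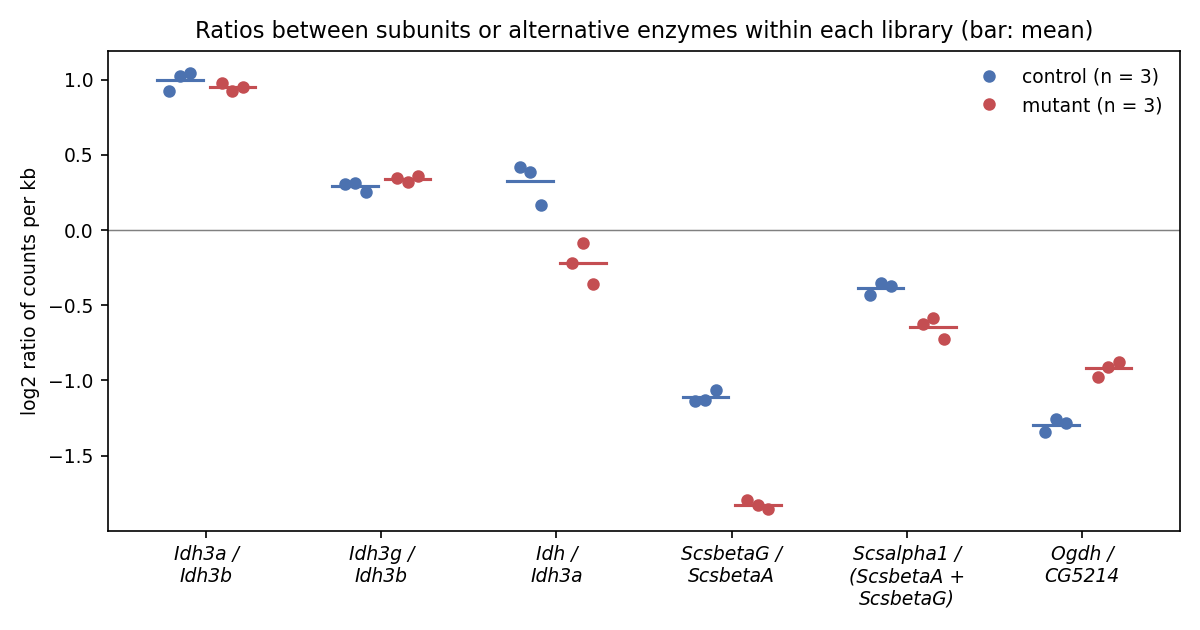
Log2 ratios between subunits or alternative enzymes within each library, in counts per kb of exon, with 3 controls in blue, 3 mutants in red and a bar at each mean. *ScsbetaG* to *ScsbetaA* shows the widest gap (−1.11 in controls, −1.83 in mutants). *Idh* to *Idh3a* crosses 0 on this scale, which rests on the exon lengths, and *Idh3a* to *Idh3b* overlaps between genotypes.

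The other genes of the cycle were mostly lower as well. The 8 further genes were succinate dehydrogenase subunits, fumarase, malate dehydrogenase, and E2 and E3 of the 2-oxoglutarate dehydrogenase complex. Of these, 6 were lower, none was higher and 2 did not pass (5 lower without the libraries numbered 3). Their median log2 fold change was −0.21, and over all tested genes 26.0% were lower and 22.2% higher. *Mdh2*, mitochondrial malate dehydrogenase, and *Fum1*, fumarase, had log2 fold changes of −0.26 and −0.22 (edgeR adjusted p of 0.00855 and 0.0173). *SdhD* and *SdhB*, subunits of succinate dehydrogenase, had log2 fold changes of −0.23 and −0.23 (adjusted p of 0.0224 and 0.027). The log2 fold changes of these 8 genes ran from −0.26 to −0.11. *Idh* and *ScsbetaG* lay below that range and *Ogdh*, *ScsbetaA* and *mAcon1* (−0.07) above it, as the plot of genotype differences for all 18 cycle genes shows.

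**Figure D4:**
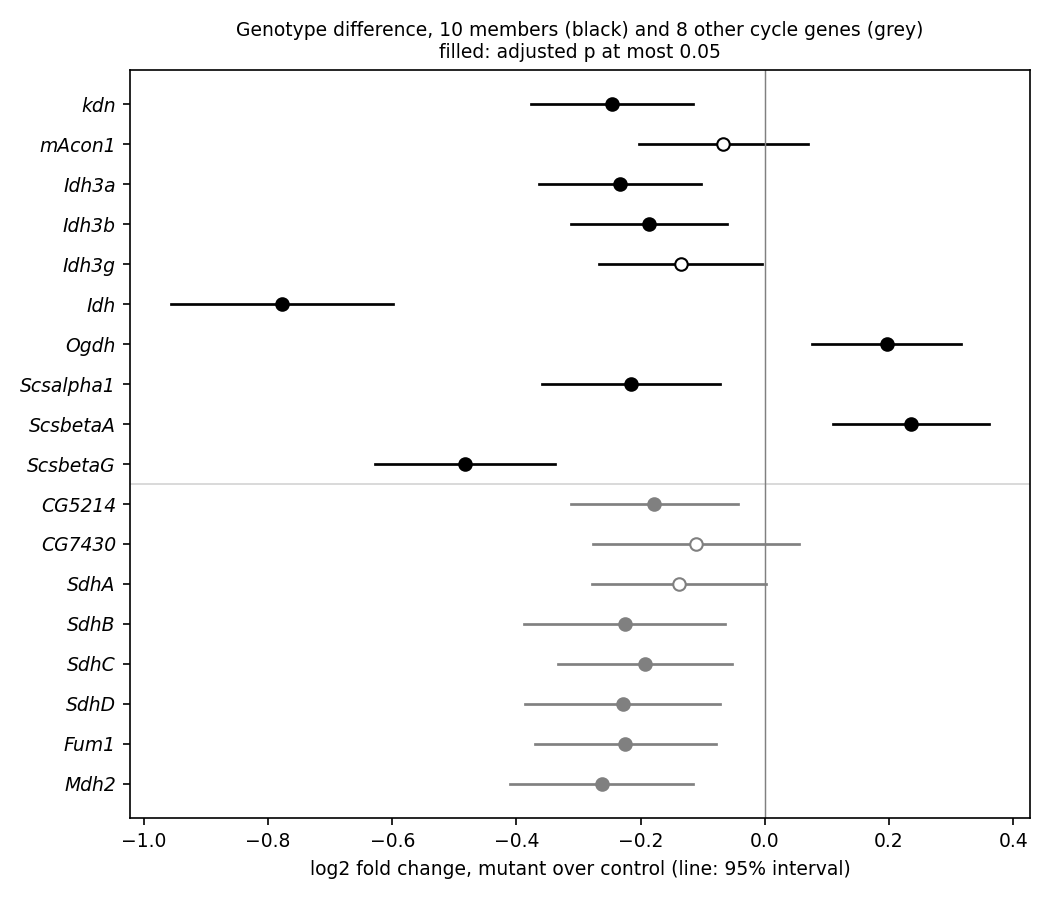
Log2 fold change of mutant over control with its 95% interval for the 10 genes (black) and 8 other cycle genes (grey), filled where the adjusted p is at most 0.05. Most points lie between −0.1 and −0.3, with *Idh* (−0.78) and *ScsbetaG* (−0.48) further left and *Ogdh* (0.20) and *ScsbetaA* (0.24) to the right of 0.

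Most of the listed relatives of the cycle enzymes had too few counts to be tested. The 13 paralogs include relatives of fumarase, succinate dehydrogenase and malate dehydrogenase, which are not among the members. Of the 13, 6 had enough counts to be tested. Of these 1 was lower, none was higher and 5 did not pass, with a median log2 fold change of −0.13. Across all tested genes 26.0% were called lower and 22.2% higher, so the lack of a higher call among 6 genes says little. *Irp-1B*, a cytosolic aconitase relative, fell from 412 ± 36.9 to 347 ± 10.6 CPM (log2 fold change of −0.25, edgeR adjusted p = 0.0201). *Irp-1A* had a log2 fold change of −0.17 and *Mdh1*, cytosolic malate dehydrogenase, one of −0.15 (edgeR adjusted p of 0.0684 and 0.0643). *Fum4* had only 20 counts in all 6 libraries together, and its log2 fold change of 0.84 had a 95% interval of −0.73 to 2.41. The 7 paralogs that were not tested, among them the second aconitase *mAcon2* (1 count in all) and the second alpha subunit *Scsalpha2* (1 count in all), held at most 3 counts in any library.

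Genes that bring carbon into the cycle or take it out gave a mixed picture. Of 13 tested, 5 were lower, 1 was higher and 7 did not pass, with a median log2 fold change of −0.14. The shares over all tested genes were 26.0% lower and 22.2% higher. *Gdh*, glutamate dehydrogenase, which feeds 2-oxoglutarate from glutamate, fell from 1172 ± 75.4 to 779 ± 24.1 CPM (log2 fold change of −0.59, edgeR adjusted p = 9.2e-05). *CG9399*, a subunit of the mitochondrial pyruvate carrier, and *PCB*, pyruvate carboxylase, had log2 fold changes of −0.42 and −0.38 (edgeR adjusted p of 0.000795 and 0.000942). *ATPCL*, ATP citrate lyase, which cleaves exported citrate, had a log2 fold change of −0.54 (edgeR adjusted p = 0.0332). The gene that rose was *muc*, the E2 subunit of the pyruvate dehydrogenase complex, by 0.21 on the log2 scale (edgeR adjusted p = 0.0361), and it is named because it was the only one. Without the libraries numbered 3, 4 of the 13 were lower and none was higher, so the call of *muc* was lost. The citrate carrier gene *sea* shares 1660 of its 1949 exon bases with *fabp* on the same strand, where pairs cannot be assigned to either gene, and its 0.185 to 0.635 CPM were not read as its level.

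The NADP-dependent *Idh* can be set beside other enzymes that make NADPH. Of 6 such genes, 3 were lower, none was higher and 3 did not pass, with a median log2 fold change of −0.33. Among all tested genes 26.0% were lower and 22.2% higher. *Nmdmc*, a mitochondrial folate dehydrogenase, fell by 0.81 on the log2 scale (edgeR adjusted p = 9.72e-05), but its name describes an NAD-dependent enzyme. Without it 2 of 5 were lower, and the middle log2 fold change of those 5 was −0.14. *Pgd* and *Zw*, the dehydrogenases of the pentose phosphate pathway, fell by 0.52 and 0.59 (edgeR adjusted p of 0.00858 and 0.0459). *Men*, malic enzyme, had a log2 fold change of 0.15 (edgeR adjusted p = 0.084). *Zw* and *Pgd* were already lower in control replicate 3, at 66.37 and 212.9 CPM, than in control replicates 1 and 2, at 101.2 and 82.38 CPM for *Zw* and 290.5 and 242.4 CPM for *Pgd*, and *Idh* was lowest in the same control.

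Mitochondrial genes outside the cycle were also mostly lower. Of 10 genes for the respiratory chain, ATP synthase, carriers and mitochondrial upkeep, 8 were lower, none was higher and 2 did not pass. Their median log2 fold change was −0.23, and over all tested genes 26.0% were lower and 22.2% higher. *Hsp60A*, the mitochondrial chaperonin, and *TFAM*, which packages mitochondrial DNA, fell by 0.74 and 0.60 on the log2 scale (edgeR adjusted p of 5.05e-05 and 0.000346). *COX5A*, of cytochrome c oxidase, and *sesB*, the adenine nucleotide carrier, fell by 0.26 and 0.23 (edgeR adjusted p of 0.0059 and 0.0102). Of 7 regulators of mitochondria, among them *TFAM* again, 2 were lower, 2 were higher and 3 did not pass, with a median of −0.06. *srl*, the fly relative of the mammalian coactivator PGC-1, fell from 168 ± 5.39 to 103 ± 2.69 CPM (log2 fold change of −0.71, edgeR adjusted p = 3.56e-05), and *ewg*, the relative of the mammalian nuclear respiratory factor NRF-1, rose by 0.51 (adjusted p = 0.00127). *Marf*, mitofusin, rose by 0.23 (adjusted p = 0.0143).

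**Figure D5:**
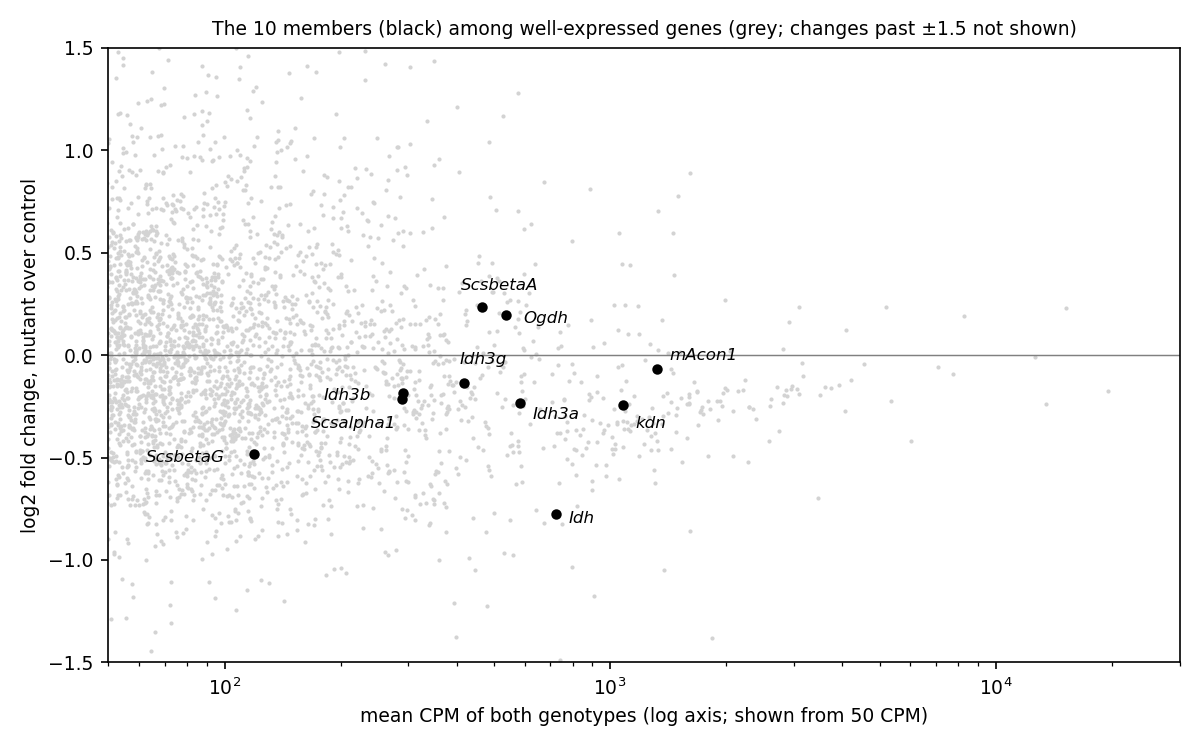
Log2 fold change of mutant over control against mean CPM of both genotypes (log axis, from 50 CPM), with the 10 genes in black and other genes in grey, changes past 1.5 in either direction not being shown. All 10 lie within ±1, with *Idh* the lowest at −0.78.

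The mean profile of the 10 genes over the 6 libraries, each gene centred on its own mean, was most like that of *Ts*, *Cbs*, *Khc*, *mRpS30* and *Dus3* among 11327 genes outside the lists, with Pearson's r of 0.9982 to 0.9992 on the log2(CPM + 1) scale. These values describe 6 libraries that fall into 2 genotypes, and 1275 genes had an r above 0.95. In the same order these genes encode thymidylate synthase, cystathionine beta-synthase, the kinesin heavy chain, a mitochondrial ribosomal protein and a tRNA dihydrouridine synthase.

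The larvae were sampled whole, and the labels do not give their stage within the instar. A lower transcript level can come, among other sources, from fewer cells of a type or from less RNA per cell, and these cannot be told apart. Marker genes of several tissues differed between the genotypes. The counts of calls below stand against 26.0% lower and 22.2% higher among all tested genes. Muscle markers summed to 56333 to 58438 CPM in the controls against 49611 to 55539 in the mutants, with 4 of 8 lower and none higher. Fat body markers summed to 10602 to 12362 and 8477 to 10580 CPM, with 2 of the 5 tested lower and 1 higher, while *Lsp2* and *Fbp1* held at most 4 counts in any library and *Adh* shares 2116 of its 2254 exon bases with *Adhr* on the same strand. Midgut markers summed to 1377 to 1795 CPM in the controls against 1982 to 2466 in the mutants, with 5 of 8 higher. Tracheal markers summed to 1560 to 2342 and 3044 to 3653 CPM, with 3 of 5 higher, and nervous system markers to 430 to 487 and 500 to 584 CPM, with 5 of 8 higher and 2 lower. Hemocyte markers overlapped, at 166 to 176 and 159 to 183 CPM, with 1 of 5 higher and 1 lower. Median log2 fold changes were −0.15 for muscle, −0.10 for fat body, 0.64 for midgut, 0.70 for tracheae, 0.33 for the nervous system and 0.04 for hemocytes. Without the libraries numbered 3, 6 midgut and 4 tracheal markers were higher, and the counts of calls for muscle, fat body, nervous system and hemocytes were as with all libraries. The part of these tissue markers, or of larval stage, in the levels of the 10 cycle genes was not tested.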

How the data were processed

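RNA-seq libraries (poly(A)-selected, TruSeq Stranded mRNA, paired ends of 75 cycles on a NextSeq 550) came from 3 *Pyk23/+* control and 3 *Pyk23/31* mutant samples, grouped by the genotype in their labels. For each library the authors deposited raw counts of read pairs per gene, not normalized, in the layout of STAR. STAR and BDGP6 are named in the notes that the submitters gave on processing, with versions not given in the sources used here. Per its methods, the study made its own tables with Kallisto, tximport and DESeq2, so these counts followed another route. Counts on the strand that fits the kit were used (the opposite strand held 2.50% to 2.55%). Pairs mapping to several places (3.97% to 4.72%) or to overlapping genes of 1 strand were not counted. In each file 486 lines that name no gene held 0.0329% to 0.0461% of the counts and were left out. Depth was 11249487 to 16029304 assigned pairs.

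Genotypes were compared in R 4.3.3 with edgeR 4.0.16 (TMM, robust quasi-likelihood test, Benjamini-Hochberg over all genes) for 11422 genes with at least 12 counts over the 6 libraries, a filter taken from the study's methods. Calls needed an adjusted p of 0.05 or less, and the number changed at least 2-fold is given beside them. Levels are CPM on TMM library sizes, or CPM per kb of the union of annotated exons (BDGP6.54), from which places also come. Symbols come from a separate list of gene names. The release used for counting is not given, so the counted exons may differ from these. Ratios within a library and the summed level were compared by exact two-sided permutation tests, and p-values of 5 ratios were adjusted together. The test was also run on simulated data with the same dispersion for every gene and no library set apart. Those settings are simpler than these data, so that run does not give its accuracy here. No pair of libraries agreed within sampling noise (control replicates 1 and 2 had a chi-square per degree of freedom of 3.63, and the other pairs 16.2 to 31.2).

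The members, gene lists and ratios were chosen with earlier results of these data known. All 10 members are named, and from each other list of pathway genes the 4 with the smallest p. From the tissue marker lists, counts and summed levels are given. Alternatives were RLE size factors, library totals, DESeq2 1.42.0, limma-voom (limma 3.58.1), no filter, edgeR's filterByExpr, unstranded counts, each library left out, the libraries numbered 3 left out, and a replicate block. Protein and promoter sequences were not used here.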

Additional observations from a re-analysis of the deposited data

How the results depend on the processing

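No member changed direction under any of the 15 alternatives, which were the other scalings, tools, filters, unstranded counts, the replicate block and the left-out libraries. *kdn*, *Idh*, *Idh3a*, *ScsbetaA* and *ScsbetaG* passed under all 15, with log2 fold changes of −0.28 to −0.19, −0.85 to −0.71, −0.27 to −0.18, 0.21 to 0.29 and −0.52 to −0.43. *mAcon1* passed under none (−0.12 to −0.0097, adjusted p of 0.189 to 0.903). The number of members called higher was 1 to 2 and the number called lower 4 to 7 when 1 library was left out, against 2 and 6 with all libraries. The count of 1 came without control replicate 1, 2 or 3, each of which removed *Ogdh*. With library totals alone 4 were lower, since *Idh3b* and *Scsalpha1* were lost at −0.13 and −0.16, and all tested genes then had a median of 0.072. The cause of the lost calls was not tested. The fit with a replicate block gave 2 higher and 6 lower, as without it. The replicate numbers do not pair the samples: same-numbered libraries had correlations of deviations of −0.314, −0.096 and −0.31, and the others −0.152 to 0.316. The log2 summed level changed by −0.24 to −0.15 under its 9 alternatives. No ratio changed sign under its 8, but 3 samples against 3 cannot pass an exact test. Leaving the libraries numbered 3 out of the ratios, the summed level and the other lists was added after seeing the data. At the lowest count of each member, counting error was 0.84% to 2.84%. It exceeded the coefficient of variation of both genotypes for *Idh3b* (1.73%, against 1.32% and 1.62%). It also exceeded that of the mutants for *Ogdh* (1.36%, against 0.747%) and of the controls for *Scsalpha1* (1.70%, against 1.64%). The lowest counts of *Idh3b* and *Ogdh* were those of control replicate 3. That of *ScsbetaG* lay in mutant replicate 2, so its 2.84% was not set against the 2.57% of its controls. Depth thus bears on the precision of *Idh3b*, *Ogdh* and *Scsalpha1*.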
